A study of Mus musculus with 8 samples.

Results

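Iron handling and siderophore defence were followed through 10 genes in mouse peritoneal macrophages that lack the proprotein convertase FURIN or carry it, at rest and during stimulation with bacterial lipopolysaccharide (LPS). The genes are Lcn2 and Bdh2 (siderophore defence), Slc40a1 and Hamp (iron export and its hormone), Slc11a1, Slc11a2 and Tfrc (iron transport and uptake), Fth1 and Ftl1 (ferritin) and Ireb2 (the iron sensor IRP2). They were found as the array probes whose RefSeq identifier belongs to one of them, with the brightest probe of each gene taken over all arrays. All 10 were found and passed the minimum intensity, among 37020 genes and transcripts on the array, of which 36949 were tested.

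The KO macrophages came from LysMCre-fur(fl/fl) mice, in which Cre is expressed from the Lyz2 locus and so acts in myeloid cells, and the WT macrophages from littermates, all on a C57BL/6 background. Adherent peritoneal cells of each genotype were left unstimulated or received E. coli LPS at 1 μg/ml for 1, 4 or 24 h, and each Agilent 2-colour array carried KO RNA in one dye and WT RNA in the other. There were 8 arrays, 2 biological replicates for each time, with KO RNA in Cy5 on replicate 1 and in Cy3 on replicate 2, so replicate number and dye orientation are 1 factor. Values are log2 intensities of a dye channel after normalization (called levels below), and ratios are log2 KO/WT within an array. A gene was called where its p-value from limma, adjusted over all genes tested, was under 0.05.

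As background, macrophages take up iron from transferrin through the receptor TFRC and from red cells they engulf, move it out of endosomes and phagosomes with SLC11A2 and SLC11A1, store it in ferritin, and release it through ferroportin, the product of Slc40a1. Hepcidin, the product of Hamp, binds ferroportin and closes this exit. Bacteria compete for the same iron with siderophores, small iron carriers that lipocalin 2, the product of Lcn2, captures. BDH2 is a dehydrogenase that has been linked to a mammalian siderophore, a partner of lipocalin 2, and iron regulatory proteins such as IRP2 adjust the translation of ferritin and the stability of Tfrc mRNA.

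The targeted gene was checked first. Unstimulated, the log2 KO/WT ratio of Furin was -0.59 on replicate 1 and -0.85 on replicate 2. After LPS the corresponding pairs were -0.56 and -0.55 (1 h), 0.00023 and 0.33 (4 h), and -0.59 and -0.69 (24 h). The RNA labelled KO at 4 h therefore did not have less Furin signal than WT, and it is called "labelled KO" below. Counts over all 8 arrays, means over the time points and the figures include it as labelled. The position of the Furin probe relative to the deleted part is not known here. Lyz2, whose locus carries the Cre, was lower in KO on all 8 arrays, between -0.74 and -1.85, the 4 h arrays included (-1.04 and -1.13). All 7 macrophage markers measured, among them Adgre1, Csf1r and Itgam, were well above background on both arrays in every group, and 43.8% to 51.3% of gene spots were well above background in a channel. The summed intensity of these 7 fell with time, from 498289 to 601162 in unstimulated WT to 170420 to 174876 in WT at 24 h, and in KO it was below WT at each time (394299 to 411333 at rest and 112332 to 116263 at 24 h). Such a sum weighs the brightest markers most, among them Lyz2, with a mean level of 17.94 in WT and 17.03 in KO at rest. The markers did not all go that way: at rest Lyz2, Csf1r, Mertk and Timd4 had lower means in KO. Adgre1 (16.01 in WT and 16.08 in KO), Itgam (14.08 and 14.22) and Gata6 had higher ones. All 5 B cell markers and all 5 mast cell markers measured were well above background in every group too, and the mast cell sum went from 7478 to 10650 in unstimulated WT to 1649 to 2954 in WT at 24 h, and from 9162 to 13586 to 3438 to 3509 in KO. The summed intensity of 7 markers of mesothelial cells and fibroblasts, of which 1 to 4 were well above background on both arrays of a group, went from 759 to 778 at rest to 1908 to 2099 at 24 h in WT, and from 798 to 922 to 2451 to 2582 in KO. The part of such shifts in the results below was not tested. All arrays lay on 1 slide, with the 0 and 1 h arrays in its upper row and the 4 and 24 h arrays in its lower row, so LPS time and row cannot be told apart for comparisons of 4 or 24 h with the unstimulated cells. These comparisons also share the unstimulated arrays within a genotype. No unstimulated cells were matched to the separate LPS times, so LPS and time in culture cannot be told apart either.

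Promoter sequence is shown for the 2 members whose signal rose the most with LPS and for Bdh2, whose level differed between the genotypes. RefSeq windows were at hand for 8 of the 10 genes. The lines below give the 250 bases upstream of the start in GRCm38.p6, from 5′ to 3′ on the gene's strand. They lie at chr2:32387740-32387989 (Lcn2, minus strand), chr7:30944030-30944279 (Hamp, minus strand) and chr3:135280971-135281220 (Bdh2, plus strand).
Lcn2: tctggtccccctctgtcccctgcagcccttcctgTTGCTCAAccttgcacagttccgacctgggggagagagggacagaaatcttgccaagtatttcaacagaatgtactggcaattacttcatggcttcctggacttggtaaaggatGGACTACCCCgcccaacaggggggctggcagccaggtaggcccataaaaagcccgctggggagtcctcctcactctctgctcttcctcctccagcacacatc
Hamp: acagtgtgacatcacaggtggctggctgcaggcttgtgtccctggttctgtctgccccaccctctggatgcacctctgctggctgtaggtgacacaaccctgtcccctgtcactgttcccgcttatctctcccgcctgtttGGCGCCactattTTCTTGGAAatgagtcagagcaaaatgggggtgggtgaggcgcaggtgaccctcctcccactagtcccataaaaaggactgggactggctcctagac
Bdh2: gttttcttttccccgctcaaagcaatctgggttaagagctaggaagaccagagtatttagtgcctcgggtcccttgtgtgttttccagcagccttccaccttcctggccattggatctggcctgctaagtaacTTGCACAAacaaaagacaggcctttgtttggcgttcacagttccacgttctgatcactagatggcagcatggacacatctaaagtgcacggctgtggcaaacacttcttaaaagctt
Capitals mark matches, on either strand, to 4 letter patterns: GGG and CC with any 5 bases between them (the frame of NF-κB sites), TTGCNNAA (a C/EBP-type pattern), TTCNNNGAA (a STAT-type pattern) and GGCGCC (a pattern of BMP-responsive elements). Counted from the start, Lcn2 holds a C/EBP-type match from -216 to -209 and, on the opposite strand, an NF-κB frame from -102 to -93. Hamp holds GGCGCC from -109 to -104 and a STAT-type match from -97 to -89, and Bdh2 a C/EBP-type match from -117 to -110. These matches do not overlap one another. Of 32851 promoter windows of the same length, 45.8% hold the NF-κB frame, 9.56% the C/EBP-type, 7.02% the STAT-type and 9.59% the GGCGCC pattern, so such matches are common and are given as a description of the sequence only.

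Members of the group were called against unstimulated cells from 4 h of LPS on. In both genotypes Lcn2 and Ireb2 were called higher and Slc11a1 lower at 4 h, and Lcn2, Hamp and Ireb2 higher at 24 h. At 1 h no member was called in WT, where 8.55% of all genes tested were called, or in KO (7.54% of all genes). At an unadjusted p under 0.05, the numbers at 1 h were 2 members in WT and 1 in KO, where 18.3% and 18.1% of all genes passed that limit. At 4 h, 3 members were higher in WT (Lcn2, Ireb2 and Hamp) and 1 lower (Slc11a1), against 15.5% of all genes called higher and 19.3% called lower. In RNA labelled KO, 3 were higher (Lcn2, Ireb2 and Tfrc) and 3 lower (Slc11a1, Ftl1 and Bdh2), against 16.3% and 19.7%. At 24 h, Lcn2, Hamp, Ireb2 and Bdh2 were higher and Tfrc lower in WT, against 13.5% and 16.9% of all genes. In KO at 24 h, Lcn2, Hamp and Ireb2 were higher and Ftl1 and Bdh2 lower, against 12.8% and 15.9%. These shares are over all genes tested, many of them dim. With only probes well above background, 13075 of 21558 genes were called in WT at 4 h and 11678 at 24 h. For RNA labelled KO at 4 h the number was 13438, and for KO at 24 h 11047. The median change over the 10 members was -0.01 in WT and 0.08 in RNA labelled KO at 4 h and 0.07 in WT and -0.09 in KO at 24 h, where the median of all genes tested lay between -0.015 and 0.0016.

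**Figure D1:**
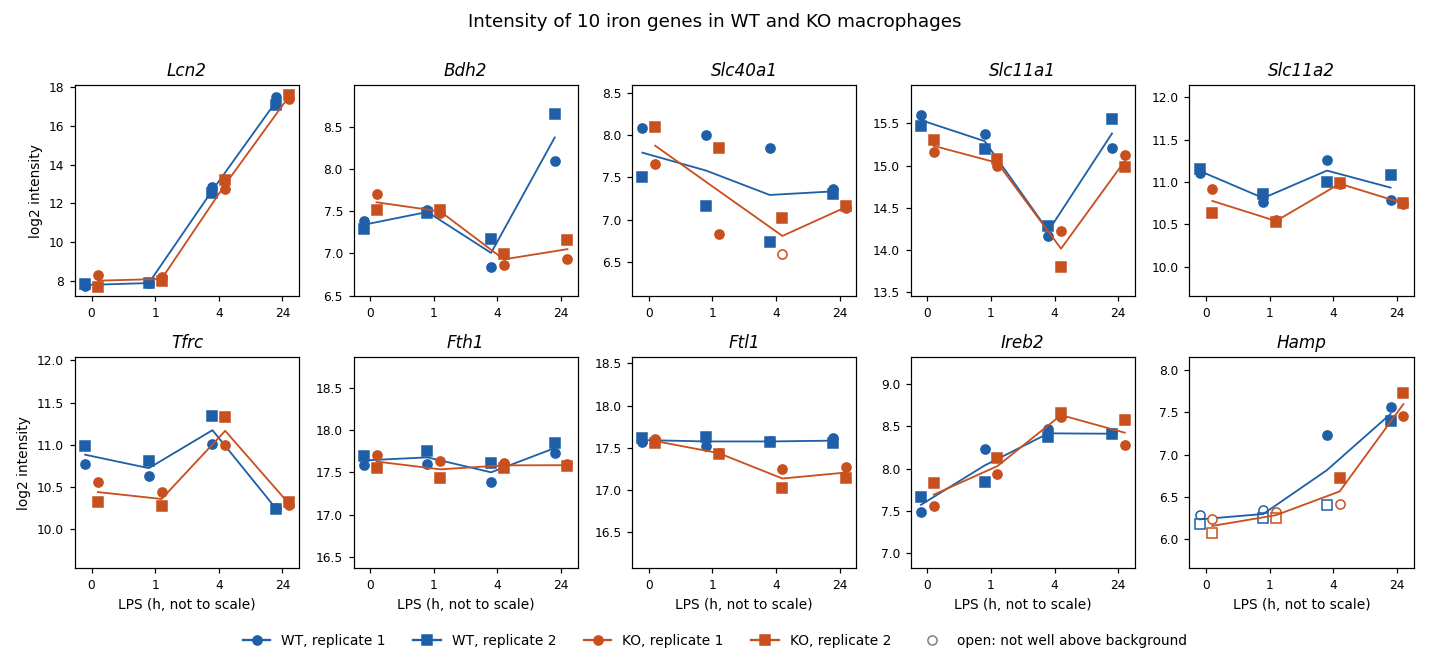
Log2 intensity (y axis) of each of the 10 genes at 0, 1, 4 and 24 h of LPS (x axis, not to scale) in WT (blue) and KO (orange; at 4 h the RNA labelled KO). Points are single arrays, circles for replicate 1 and squares for replicate 2, lines join the means of 2, and open points were not well above background. Lcn2 climbs from about 7.8 to above 17 in both genotypes, Bdh2 parts at 24 h, and the y axes differ between panels.

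Lcn2, which encodes the siderophore-binding protein lipocalin 2, had the largest change of the 10. Its level in WT was 7.75 and 7.81 at rest, 7.88 on both arrays at 1 h, 12.84 and 12.51 at 4 h, then 17.47 and 17.06 at 24 h. The KO levels were 8.32 and 7.68, then 8.17 and 8.01, 12.75 and 13.19, and 17.41 and 17.61. The levels at rest and at 1 h overlapped in KO, and every 4 h and 24 h level lay far above both. The rise over unstimulated cells was 29.8-fold in WT at 4 h (log2 4.90, SE 0.21, adjusted p = 6.07e-10) and 717-fold at 24 h (log2 9.49, SE 0.21, adjusted p = 4.83e-12). In KO the rise was 31.4-fold in RNA labelled KO at 4 h and 729.9-fold at 24 h (adjusted p = 5.41e-10 and 6.45e-12). Between 4 and 24 h, where the arrays lay in the same row of the slide, Lcn2 rose by a further 4.59 in WT and 4.54 in KO on the log2 scale. The genotypes were not told apart: the ratio was 0.57 and -0.13 at rest, 0.29 and 0.13 at 1 h, -0.09 and 0.68 at 4 h, then -0.06 and 0.55 at 24 h. Their mean was 0.24 (SE 0.11, adjusted p = 0.497), and KO was the higher on 5 of 8 arrays.

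Because neutrophils also make lipocalin 2, their markers are given beside it. Of 10 measured, 4 (S100a8, Mmp8, Elane and Camp) were well above background on both arrays of every group, while S100a9, Mpo, Ngp, Retnlg and Cxcr2 were not on any array, and Ltf was on 1 array only. The summed intensity of the 10 ran from 8930 to 9793 in unstimulated WT and from 25272 to 62619 in WT at 24 h, and from 8478 to 9457 and from 39866 to 67872 in KO, with S100a8 going from a mean level of 11.36 to 15.13 in WT and from 11.07 to 15.57 in KO. The other detected markers did not move together from rest to 24 h. Camp rose (7.90 to 9.72 in WT and 7.74 to 9.37 in KO). Mmp8 fell (12.14 to 10.49 in WT and 12.19 to 10.54 in KO), as did Elane (10.56 to 9.70 in WT and 10.52 to 9.65 in KO). At 4 h, when Lcn2 had already risen, the sum was lower than at rest in both genotypes (5565 to 6228 in WT and 5375 to 5456 in RNA labelled KO). The part of such cells in the Lcn2 signal was not tested. In RNA from a culture, more RNA per cell and more cells of a type cannot be told apart, which holds for each result here.

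Bdh2 was the only member with a called difference between KO and WT at a single time point. Its level in WT was 7.39 and 7.29 at rest, 7.51 and 7.47 at 1 h, 6.84 and 7.17 at 4 h, then 8.10 and 8.64 at 24 h. The corresponding KO pairs were 7.70 and 7.51, 7.47 and 7.52, 6.86 and 6.99, and 6.94 and 7.16. WT at 24 h thus stood above every other group, while KO at 24 h stayed among the lowest values. The ratio at 24 h was -1.16 and -1.48, which is 2.50-fold lower in KO (log2 -1.32, SE 0.11, adjusted p = 0.0116). In that comparison 9 of 36949 genes (0.0244%) were called. At rest Bdh2 was higher in KO on both arrays (0.31 and 0.22), a difference that did not pass (adjusted p = 0.80). The call at 24 h was lost without replicate 1 of that time point (adjusted p = 0.0549), without replicate 2 (adjusted p = 0.132), with the software's processed signals (log2 -2.08, adjusted p = 0.496) and in the methods' t-test, while the direction held in each.

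With LPS, Bdh2 was called in opposite directions in the genotypes at 24 h. It rose 2.05-fold in WT (log2 1.03, adjusted p = 1.51e-04) and fell 1.47-fold in KO (log2 -0.55, adjusted p = 0.0156), after a 1.60-fold fall in RNA labelled KO at 4 h (adjusted p = 0.00342). The 4 h change in WT was -0.55 and -0.12 (adjusted p = 0.131). The difference between the responses at 24 h, tested directly, was -1.59 (SE 0.15) and missed the threshold (adjusted p = 0.131). With the replicate number as a block it passed (adjusted p = 0.00283), in a comparison where 78 genes (0.211%) were called. The fall in KO at 24 h was not called without unstimulated replicate 1 (adjusted p = 0.147) or without replicate 1 of 24 h (adjusted p = 0.0534). With the processed signals the Bdh2 changes were larger, 1.56 in WT and -1.02 in KO at 24 h and -1.24 in RNA labelled KO at 4 h.

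**Figure D2:**
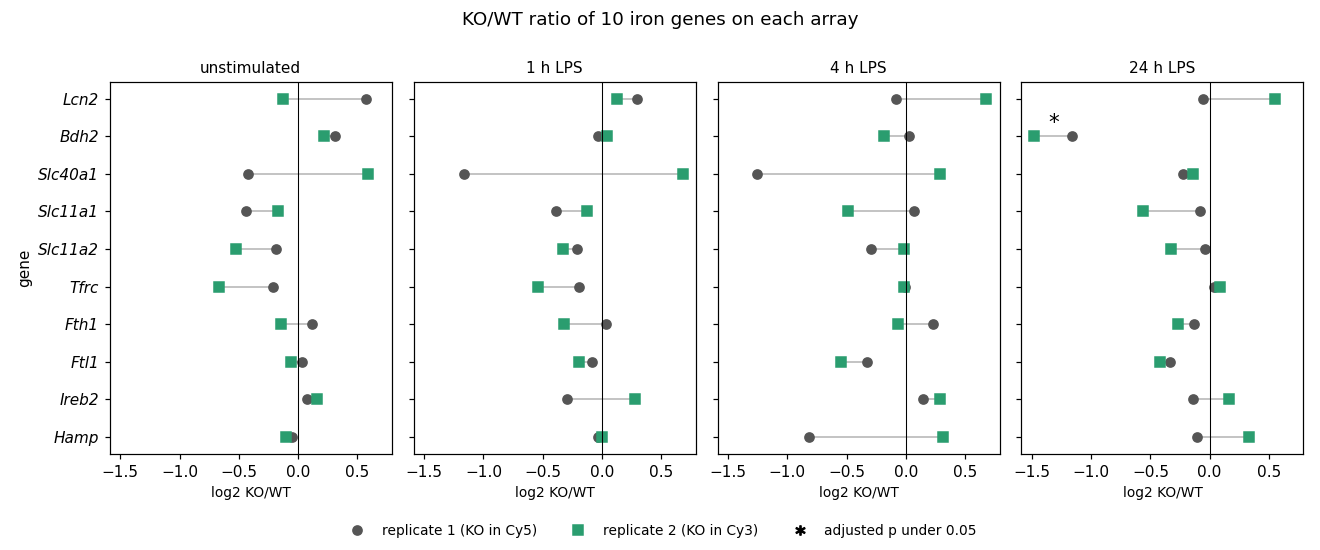
Log2 KO/WT ratio (x axis) of each gene (rows) on both arrays of each time point, circles for replicate 1 (KO in Cy5) and squares for replicate 2 (KO in Cy3), with a vertical line at 0. Bdh2 at 24 h, marked by an asterisk, is the ratio that was called, and Slc40a1 at 0, 1 and 4 h changes sign with the replicate.

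Over all 10 members, no ratio was called at rest, at 1 h or at 4 h, where 0%, 0% and 0.00812% of all genes tested were called by limma. At an unadjusted p under 0.05, limma counted 3, 1 and 1 members at these times, where 5.75%, 5.46% and 4.31% of all genes passed that limit. The methods' t-test counted 0, 1 and 0, where 4.62%, 4.75% and 3.07% of all genes did. In the mean over the 4 time points no member was called either, against 0.563% of all genes. At an unadjusted p under 0.05 there were 5 in the mean, all lower in KO, where 10.6% of all genes passed that limit. With the replicate block 3 of them (Slc11a2, Ftl1 and Bdh2) were called in the mean, against 6.01% of all genes. Bdh2 was below 0 on only 4 of 8 arrays, and its mean ratio of -0.28 includes the -1.32 at 24 h. No difference in LPS response was called for any member at 1, 4 or 24 h, nor for any gene (0%), with 0, 2 and 3 members at an unadjusted p under 0.05, a limit that 1.4%, 2.9% and 3.33% of all genes passed.

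Slc40a1 encodes ferroportin, the iron exporter of macrophages. Its level in WT was 8.08 and 7.50 at rest, 7.999 and 7.16 at 1 h, 7.85 and 6.73 at 4 h, then 7.37 and 7.30 at 24 h. The KO pairs, in the same order, were 7.66 and 8.09, 6.83 and 7.84, 6.59 and 7.02, and 7.14 and 7.16. At 0, 1 and 4 h the channel labelled with Cy3 read higher in both genotypes, so the ratio changed sign with the dye: -0.43 and 0.59, -1.17 and 0.68, and -1.26 and 0.29. At 24 h the ratio was -0.23 and -0.14. No ratio and no change of Slc40a1 with LPS was called in the fit without a block under the settings used here. The change in RNA labelled KO at 4 h was -1.07 on both arrays (adjusted p = 0.0529), and at 24 h -0.52 and -0.93 in KO (adjusted p = 0.227). With the replicate block, which here also takes up the dye, both were called (adjusted p = 0.00187 and 0.0265, where 40.4% and 33.5% of all genes were), and the changes in WT, -0.50 at 4 h and -0.46 at 24 h, were not (adjusted p = 0.112 and 0.16). Without a block, the change of Slc40a1 in RNA labelled KO at 4 h was also called with loess alone (-1.31, adjusted p = 0.00755), with the filter on probes well above background (adjusted p = 0.0363), without either 1 h array (adjusted p = 0.0205) and without replicate 2 of 4 h (-1.28, adjusted p = 0.036), and with the processed signals it was -2.14 and not called (adjusted p = 0.0704). The difference between the genotypes in this response did not pass (adjusted p = 0.836 at 4 h with the block). The lowest value, replicate 1 of RNA labelled KO at 4 h, was not well above background.

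Hamp encodes hepcidin, the peptide hormone that acts on ferroportin, and is known chiefly as a liver product. It was not well above background on any array at rest or at 1 h (levels 6.08 to 6.35). At 4 h it was so on 1 of 2 arrays in each genotype, with levels of 7.23 and 6.40 in WT and 6.41 and 6.72 in RNA labelled KO. At 24 h it was so on both arrays of both genotypes, at 7.56 and 7.40 in WT and 7.46 and 7.73 in KO, above every earlier level. Measured against the lowest signals that counted as well above background, the mean Hamp level was at least 2.11-fold higher in WT at 24 h and at least 2.22-fold higher in KO. These bounds were not tested. The fitted log2 changes at 24 h, 1.25 in WT and 1.44 in KO, were called by limma (adjusted p = 3.54e-04 and 1.09e-04). Each adjusted p given for Hamp, at 4 h too, belongs to the fitted change and not to the bound. At 4 h the bound was 1.32-fold in WT, with an adjusted p of 0.0462 that was lost in 7 of 8 fits leaving out an array. Without replicate 1 of 4 h the fitted change fell from 0.58 to 0.17 (adjusted p = 0.46). With the processed signals the fitted changes at 24 h were 3.98 in WT and 4.42 in KO, against 1.25 and 1.44 with the background correction used here. The ratio at 24 h was -0.10 and 0.33. The hepatocyte markers Alb, Apoa1 and Ttr were not well above background on any array.

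Slc11a1 encodes NRAMP1, a metal transporter of the phagosome membrane, whose activity in these cells was not measured here. Its level in WT was 15.60 and 15.47 at rest, 15.38 and 15.20 at 1 h, 14.17 and 14.29 at 4 h, then 15.21 and 15.55 at 24 h. KO levels were 15.16 and 15.30, 14.99 and 15.07, 14.23 and 13.80, and 15.12 and 14.99. The 4 h levels lay below all others in both genotypes. The fall at 4 h was 2.48-fold in WT (log2 -1.31, SE 0.15, adjusted p = 8.05e-06) and 2.32-fold in RNA labelled KO (log2 -1.22, SE 0.15, adjusted p = 1.69e-05). By 24 h the change against rest was -0.16 in WT and -0.18 in KO (adjusted p = 0.534 and 0.475), and within the lower row of the slide Slc11a1 rose by 1.15 and 1.04 between 4 and 24 h. KO was lower on 7 of 8 arrays, with a mean ratio of -0.27 (SE 0.08, adjusted p = 0.221).

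Slc11a2 encodes DMT1, which carries iron out of endosomes. At its brightest probe the level in WT was 11.11 and 11.15 at rest and 10.76 to 11.26 afterwards, and in KO 10.92 and 10.63 at rest and 10.53 to 10.99 afterwards. KO was the lower on 8 of 8 arrays, those labelled KO at 4 h included, by between 0.02 and 0.52, and at rest, 1 h, 4 h and 24 h the groups did not overlap. The mean ratio was -0.24 (SE 0.06, adjusted p = 0.154), and with the replicate block it was called (adjusted p = 0.026). The change with LPS was not called at this probe (0.0040 in WT and 0.20 in RNA labelled KO at 4 h). The second, dimmer probe of Slc11a2 moved differently: at 4 h it was higher by 0.81 and 0.62 in WT and by 0.95 and 0.73 in RNA labelled KO. With the mean of both probes the rise at 4 h was called in WT (0.36, adjusted p = 0.0142) and in RNA labelled KO (0.52, adjusted p = 0.00113).

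Tfrc encodes the transferrin receptor, through which cells take up iron. Its level in WT was 10.78 and 10.99 at rest, 10.64 and 10.82 at 1 h, 11.01 and 11.34 at 4 h, then 10.25 and 10.24 at 24 h. In KO it was 10.57 and 10.32, 10.44 and 10.28, 11.004 and 11.33, and 10.29 and 10.32. The genotypes were apart at rest and at 1 h and nearly equal at 4 and 24 h. The ratio was -0.21 and -0.67 at rest, -0.19 and -0.54 at 1 h, -0.0026 and -0.012 at 4 h, then 0.04 and 0.09 at 24 h. Neither of the first pair was called (adjusted p = 0.492 and 0.768).

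With LPS, Tfrc fell 1.56-fold in WT at 24 h (log2 -0.64, SE 0.14, adjusted p = 0.00325) and rose 1.65-fold in RNA labelled KO at 4 h (log2 0.72, SE 0.14, adjusted p = 0.0010). The other changes, 0.29 in WT at 4 h (adjusted p = 0.15) and -0.14 in KO at 24 h (adjusted p = 0.586), were not called. The differences between the genotypes in these responses were 0.43 at 4 h and 0.50 at 24 h, and neither passed (adjusted p = 1.00 at both). Without replicate 1 of 4 h the change in WT at 4 h was called as well (0.46, adjusted p = 0.0353). With loess within arrays alone the rise in RNA labelled KO at 4 h was 0.35 and no longer called (adjusted p = 0.117). Of the other Tfrc probes, the second gave like values (-0.34 and -0.97 in WT at 24 h), whereas the dimmest showed no fall in WT at 24 h (0.0085 and -0.03).

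Fth1 and Ftl1 encode the heavy and light chains of ferritin, the iron store, and their probes were among the brightest on the array, brighter than 99.99% and 99.98% of gene probes. No spot of a member was saturated. Quantile normalization gives every channel the same set of values, so levels this near the top follow rank among the brightest probes. Some recur exactly, such as 17.6146 for Fth1 in WT at 4 h, Ftl1 in WT at rest and Lcn2 in KO at 24 h. Changes at such levels can be compressed, and by how much was not tested. Fth1 ranged from 17.39 to 17.84 over all 16 channels, and none of its comparisons was called. Ftl1 in WT stayed between 17.53 and 17.63 at every time. In KO it was 17.61 and 17.56 at rest, 17.44 and 17.43 at 1 h, 17.25 and 17.02 at 4 h, then 17.28 and 17.14 at 24 h, so from 1 h on every KO level lay below every WT level. Against rest, Ftl1 was 1.36-fold lower in RNA labelled KO at 4 h (log2 -0.44, SE 0.10, adjusted p = 0.00212) and 1.29-fold lower in KO at 24 h (log2 -0.37, SE 0.10, adjusted p = 0.00912). The change in WT was -0.02 at 4 h and -0.0072 at 24 h.

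The KO/WT ratio of Ftl1 was 0.03 and -0.06 at rest, -0.08 and -0.19 at 1 h, -0.33 and -0.55 at 4 h, then -0.34 and -0.42 at 24 h. These differences were not called (adjusted p = 0.447 at 4 h, 0.564 at 24 h and 0.072 for the mean of -0.24). With the replicate block those at 4 h (adjusted p = 0.0482, with 0.568% of all genes called) and of the mean (adjusted p = 0.00694) were. Nor was the difference in LPS response called (-0.43 at 4 h and -0.37 at 24 h, adjusted p = 1.00 at both). The calls of Ftl1 in KO were lost with other normalizations between arrays: with loess alone the changes were -0.27 and -0.23 (adjusted p = 0.465 and 0.607), and with Aquantile normalization -0.38 and -0.24 (adjusted p = 0.252 and 0.549). At 24 h the call was also lost without unstimulated replicate 1 (adjusted p = 0.0766) and without replicate 2 of 24 h (adjusted p = 0.11). The dimmer Ftl1 probe disagreed for WT, with falls of -0.99 and -0.78 at 4 h, then -0.94 and -0.64 at 24 h, beside -1.11 and -1.19 and -0.97 and -1.05 in KO. With the mean of both probes Ftl1 was called lower in WT too, by -0.45 at 4 h and -0.40 at 24 h (adjusted p = 0.00426 and 0.0112), and by -0.80 and -0.69 in KO.

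**Figure D3:**
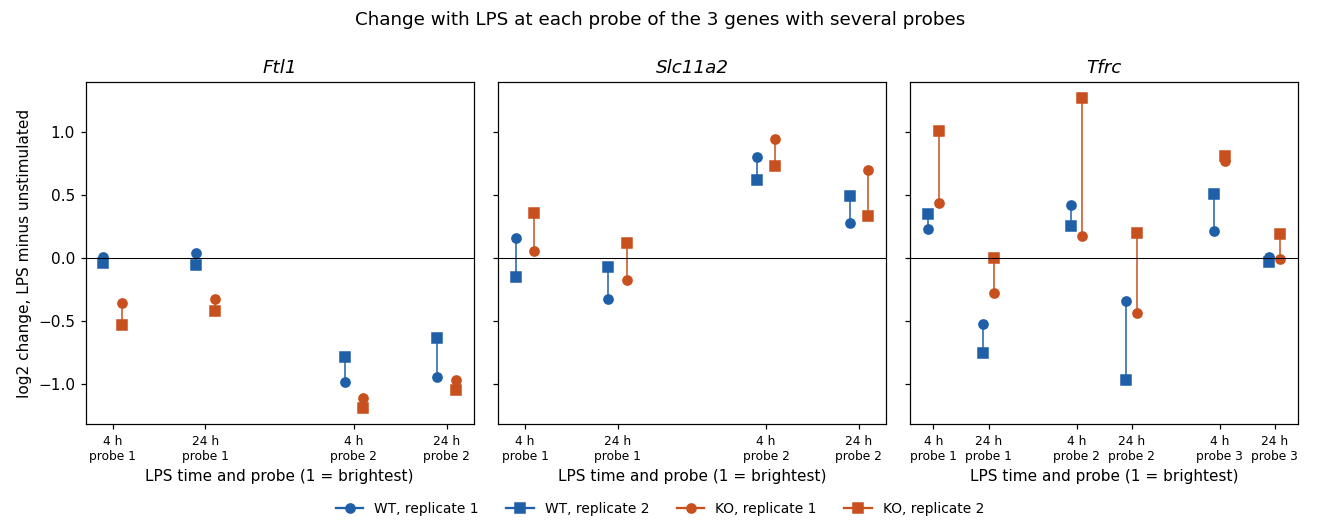
Log2 change from unstimulated cells (y axis) at 4 and 24 h (x axis) for each probe of Ftl1, Slc11a2 and Tfrc, ordered from the brightest, in WT (blue) and KO (orange; at 4 h the RNA labelled KO), with circles for replicate 1 and squares for replicate 2. The second probe of Ftl1 falls in WT as well, and the second probe of Slc11a2 rises at 4 h where the first does not.

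Ireb2 encodes IRP2, an RNA-binding protein that is broken down when iron is plentiful. Its level in WT was 7.48 and 7.66 at rest, 8.23 and 7.84 at 1 h, 8.46 and 8.37 at 4 h, then 8.42 and 8.41 at 24 h. In KO it was 7.56 and 7.83, 7.94 and 8.12, 8.61 and 8.66, and 8.28 and 8.57. Every level after LPS lay above every level at rest in the same genotype. The rise at 4 h was 1.80-fold in WT (log2 0.84, SE 0.15, adjusted p = 3.26e-04) and 1.92-fold in RNA labelled KO (log2 0.94, SE 0.15, adjusted p = 1.26e-04). At 24 h it was 1.79-fold in WT and 1.66-fold in KO (adjusted p = 4.48e-04 and 0.0014). At 1 h it was 0.46 in WT (adjusted p = 0.0724), which was called with the replicate block (adjusted p = 0.0218, with 12.2% of all genes called) and without replicate 2 of 1 h (adjusted p = 0.0272). With loess alone the 4 h changes of Ireb2 were 0.42 in WT (adjusted p = 0.0607) and 0.50 in RNA labelled KO (adjusted p = 0.0262). Its mean ratio was 0.09 (adjusted p = 0.808).

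**Figure D4:**
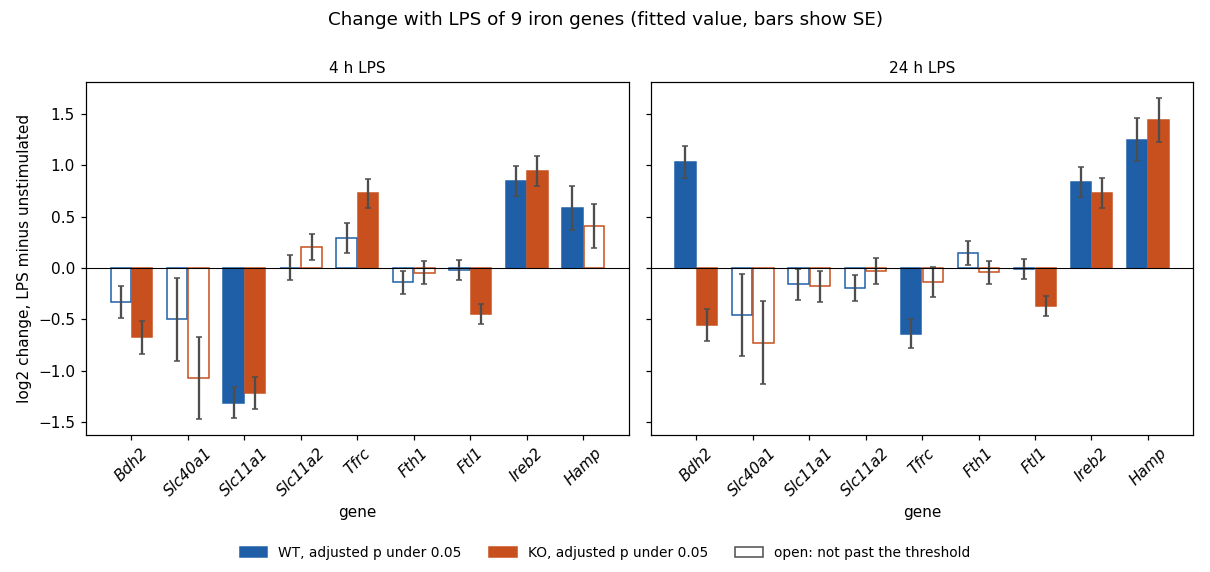
Fitted log2 change from unstimulated cells (y axis, bars start at 0) of 9 genes at 4 h (left) and 24 h (right) in WT (blue) and KO (orange; at 4 h the RNA labelled KO), with error bars of 1 SE from the separate-channel fit of 2 arrays per group and filled bars for adjusted p under 0.05. Slc11a1 falls at 4 h and Ireb2 rises at both times in both genotypes, and Bdh2 at 24 h goes in opposite directions. Lcn2 is left out for its scale (log2 4.90 to 9.51).

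The levels of each gene were also ordered over the 8 groups. For Lcn2 the steps from the 1 h groups to the 4 h groups and from these to the 24 h groups exceeded the SD of the groups on either side, whereas WT and KO at 24 h did not differ beyond it (a gap of 0.25 against an SD of 0.29). For Bdh2 the gap between WT at 24 h and the next group, KO at rest, was 0.77, against an SD of 0.39. For Fth1 no neighbouring groups were separated beyond their SD. The range of group means was 1.22-fold for Fth1 and 1.37-fold for Ftl1, and 2.72-fold for Bdh2.

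The wider iron pathway was described with 69 further genes in 5 lists, all of them measured, of which 6 (Alas2, Cd163, Ftmt, Hjv, Scara5 and Tmprss6) were not well above background on any array. In WT, 53.6% of the 69 were called at 4 h, 11 higher and 26 lower, and 44.9% at 24 h, 12 higher and 19 lower. Of all genes tested, 34.8% and 30.4% were called in these comparisons. All genes tested include many dim ones, here and in the shares beside each list below. With only probes well above background, 13075 of 21558 genes were called in WT at 4 h and 11678 at 24 h. The 69 are therefore not shown to change more often than detected genes do. In RNA labelled KO at 4 h, 10 were higher and 26 lower, and in KO at 24 h 13 were higher and 22 lower, against 36% and 28.7% of all genes. At 1 h, 3 were higher and 3 lower in WT and 2 higher and 3 lower in KO, while the block raised these counts to 14 and 16, with 12.2% and 11.9% of all genes called.

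Among 12 genes that recycle iron from heme, 2 were higher and 8 lower in WT at 4 h, with a median change of -0.66. Of all genes tested, 15.5% were called higher and 19.3% lower there. Slc48a1, which encodes the heme transporter HRG1, was 5.82-fold lower in WT (adjusted p = 6.99e-07) and 6.54-fold lower in RNA labelled KO. Hp, which encodes the hemoglobin scavenger haptoglobin, was 4.17-fold lower in WT (adjusted p = 5.24e-07). Lrp1, a receptor that takes up heme bound to hemopexin, was 3.38-fold lower in WT at 4 h and 3.70-fold lower at 24 h. Bach1, a heme-sensitive repressor, was 3.78-fold lower in WT and 3.28-fold lower in KO at 24 h. Hmox1, which encodes the heme-degrading oxygenase and is named here after its values were seen, was not called, with changes of 0.16 in WT and -0.52 in RNA labelled KO at 4 h (adjusted p = 0.65 and 0.067).

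Of 21 genes of iron transport and storage, 3 were higher and 4 lower in WT at 4 h (15.5% and 19.3% of all genes). At 24 h, 2 were higher and 4 lower in WT (13.5% and 16.9% of all genes). In KO at 24 h, 2 were higher and 7 lower (12.8% and 15.9% of all genes). Slc22a17, described as a cell surface receptor of lipocalin 2, went the opposite way to Lcn2: it was 4.66-fold lower in WT at 4 h (adjusted p = 1.07e-05) and 7.42-fold lower at 24 h (adjusted p = 1.32e-06), and 5.83-fold lower in KO at 24 h. Trf, which encodes transferrin, was 8.26-fold lower in WT and 9.13-fold lower in KO at 24 h. Slc39a14, an importer of iron not bound to transferrin, was 11.4-fold higher in WT and 9.08-fold higher in RNA labelled KO at 4 h. Cp, the ferroxidase ceruloplasmin that works with ferroportin, was 4.89-fold higher in WT and 6.80-fold higher in KO at 24 h. Ncoa4, which delivers ferritin for breakdown, was 2.80-fold lower in WT at 24 h.

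Of 12 regulators of iron, 3 were higher and 2 lower in WT at 4 h, where 15.5% and 19.3% of all genes were. Hfe, a regulator of hepcidin that binds the transferrin receptor, was lower by a log2 change of -3.42 in WT at 4 h (adjusted p = 1.91e-08), and 12.5-fold lower in RNA labelled KO. Epas1, which encodes the hypoxia-inducible factor HIF-2α, was 22.5-fold lower in WT at 24 h and 32.2-fold lower in KO. Fbxl5, which encodes the ubiquitin ligase subunit that removes IRP2 when iron is high, was 2.17-fold higher in WT at 4 h and 2.45-fold higher at 24 h, so its mRNA and that of Ireb2 were both higher. Bmp2, a ligand that can induce hepcidin, was 3.19-fold higher in WT at 1 h (adjusted p = 5.02e-05) and 5.28-fold lower at 24 h.

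Heme synthesis moved in both directions. Of its 9 genes, 5 were lower and none higher in WT at 4 h, where 19.3% and 15.5% of all genes were. At 24 h, 3 were higher and 2 lower in WT, where 13.5% and 16.9% of all genes were. Fech, the ferrochelatase that inserts iron into heme, was 4.17-fold lower in WT at 4 h (adjusted p = 6.56e-08), and Cpox, an earlier enzyme of the pathway, was 4.02-fold higher at 24 h (adjusted p = 1.14e-08). Of 15 genes for the assembly of iron-sulphur clusters, 3 were higher and 7 lower in WT at 4 h and 3 higher and 4 lower at 24 h. The shares of all genes are those just given. Hscb, a chaperone of this pathway, was 6.15-fold lower in WT at 4 h, and Iscu, the scaffold, was 2.93-fold lower at 24 h.

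**Figure D5:**
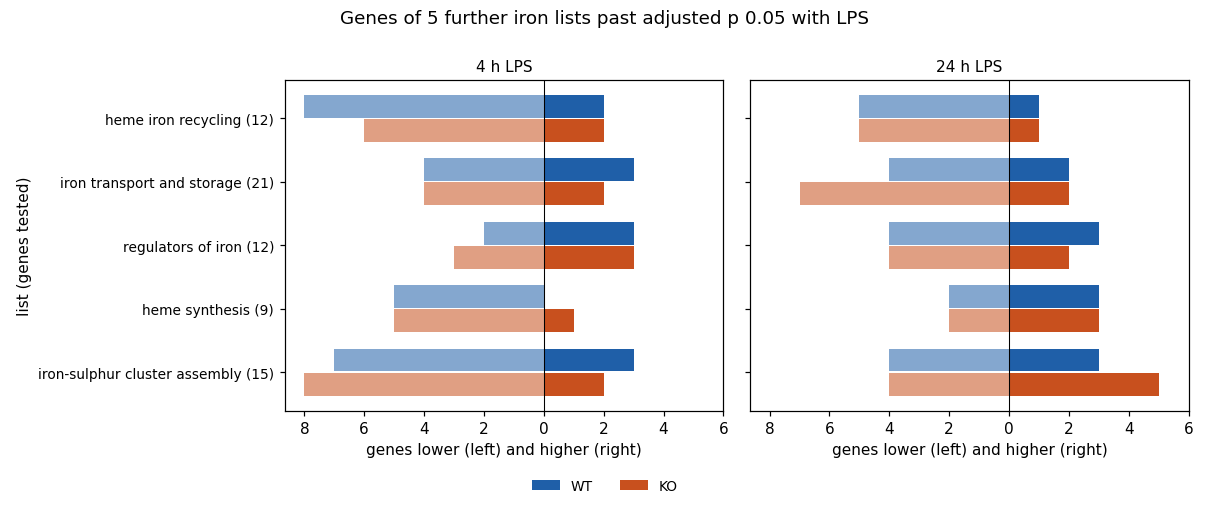
Number of genes of each list past an adjusted p of 0.05 (x axis, lower to the left in pale bars, higher to the right in full bars) at 4 and 24 h of LPS against unstimulated cells, in WT (blue) and KO (orange), with the number tested in brackets. At 4 h the genes of heme recycling number 8 lower and 2 higher in WT and 6 lower and 2 higher in RNA labelled KO, and those of iron-sulphur cluster assembly 7 and 3 in WT and 8 and 2 in RNA labelled KO.

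Between the genotypes, none of the 69 further genes was called at 0, 1, 4 or 24 h by limma, with 6, 4, 6 and 9 at an unadjusted p under 0.05, a limit that 5.75%, 5.46%, 4.31% and 3.42% of all genes passed. With the replicate block 1, 1, 2 and 4 of the 69 were called, against 1.07%, 0.576%, 0.568% and 0.585% of all genes. With the block, 11 were called in the mean over the time points, against 6.01% of all genes. Without it 1 (1.45%) was called in the mean, against 0.563% of all genes. That gene was Hp, which was lower in KO on both arrays at every time point (-0.71 and -0.77 at rest, -1.52 and -0.67 at 24 h). Its mean ratio was -0.98 (SE 0.09, adjusted p = 0.00893), or 1.97-fold lower. No gene of the 5 lists was called by limma for a difference in LPS response, with 1, 1 and 5 at an unadjusted p under 0.05 at 1, 4 and 24 h, where 1.4%, 2.9% and 3.33% of all genes passed that limit. The block called 1 of them at 24 h, against 0.211% of all genes.

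The patterns most like those of 4 members over the 16 channels, among 20826 named genes, are given as a description, since the channels share arrays, dyes and treatments. The genes closest to Lcn2 were U90926, Tyms-ps and Mybl2, with Pearson's r of 0.998, 0.996 and 0.995. Tfrc was followed most closely by Timm44 (r = 0.964), Slc29a1 and Gtdc1. For Slc40a1 the closest were Pdgfc (r = 0.890), Mmp11 and Bace1, and for Bdh2 Dnajc3 (r = 0.863), Fam13a and Cttnbp2 (r = 0.803).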

How the data were processed

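RNA from KO and WT macrophages was compared on Agilent 2-colour arrays. The authors deposited median and background intensity values per spot and dye from Agilent Feature Extraction 10.7.3, and a matrix of log2 Cy5/Cy3 ratios that the authors normalized by loess and quantiles in limma, used as an alternative. Here, median intensities were corrected with normexp (offset 50, which compresses the folds of dim genes), normalized by loess within and quantiles between arrays, averaged per probe and taken as the brightest probe per gene if its mean log2 intensity reached 6. Ratios were fitted with limma 3.58.1 (R 4.3.3) with 1 term per time point, and LPS changes within a genotype with the separate-channel fit (within-spot correlation 0.101). P-values were adjusted by Benjamini-Hochberg over all genes. Scripts were tested on simulated data. All 10 members are named, and genes of the wider lists were named from the 3 largest called increases and 3 largest called decreases per list and comparison with 1 sign on both arrays. Members and lists were chosen with earlier results of these data known. Replicate differences correlated between time points (r from 0.475 to 0.679 for ratios and from 0.214 to 0.565 for levels). Replicate numbers, which also mark the dye, were therefore taken as pairing in an alternative fit, the replicate block. The main fits held no block, so the pairing was not used in them. No per-sample column was left unused. Few arrays limit the precision, and times were taken from sample titles, although the growth protocol in the labels gives 4 h of LPS for every sample.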

Additional observations from a re-analysis of the deposited data

Results flagged for a closer look

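The log2 KO/WT ratio of Tfrc, the transferrin receptor gene, was below 0 on both arrays at rest (-0.21 and -0.67), at 1 h (-0.19 and -0.54) and at 4 h (-0.0026 and -0.012) and above 0 on both arrays at 24 h (0.04 and 0.09), so that every array of one time point moved one way and every array of the other the opposite way. The ratio at 24 h minus that at 0 h was 0.50, and limma's test of this difference did not pass (adjusted p = 1.00). The ratio at 24 h minus that at 1 h was 0.43 and minus that at 4 h 0.068, and neither of these differences was tested. The ratios at 4 and 24 h lay near 0. At the second Tfrc probe the mean ratios were -0.04 at 4 h and 0.11 at 24 h. The dimmest probe had the reverse signs, 0.17 at 4 h and -0.16 at 24 h.

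For Bdh2 the ratio was above 0 on both unstimulated arrays (0.31 and 0.22) and below 0 on both arrays at 24 h (-1.16 and -1.48). The difference of -1.59 did not pass in limma (adjusted p = 0.131) and passed with the replicate block (adjusted p = 0.00283).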

How the results depend on the processing

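No called value changed direction. For the called changes of single genes, 294 recomputed values kept their call and 23 lost it, and 22 values of genes not called gained one. The counts of members called moved most as follows. With the replicate block, which pairs the arrays, 1 member was called for KO/WT at 4 h (Ftl1), 3 in the mean, 1 for the difference in LPS response at 24 h (Bdh2) and 1 in WT at 1 h (Ireb2). With the processed signals and with the methods' t-test, KO/WT at 24 h held 0 members. Smaller moves were those in RNA labelled KO at 4 h (6 members, from 5 with loess alone or Aquantile to 7 with the block or processed signals), in KO at 24 h (5 members, from 4 with loess alone or Aquantile to 6 with the block) and in WT at 4 h (4 members, 3 in 6 of 8 fits that leave out an array). Leaving out 1 array gave 0 to 1 members for KO/WT at 24 h, 0 to 1 in WT at 1 h and 3 to 5 in KO at 24 h (3 without unstimulated replicate 1). Leaving out an array removes its values and also lowers the number of arrays, and these were not told apart. For the other settings the cause was not tested. The changes of Lcn2 and Slc11a1 kept their calls under every alternative run. Probes dim against background, Hamp above all, limit what the arrays can show. The block moved the count of all genes called from 3 to 210 for KO/WT at 4 h, from 9 to 216 at 24 h and from 208 to 2219 in the mean, whereas the processed signals gave 0 in both of the latter. With 4 h left out of the mean over the time points, an alternative chosen after seeing the data, 0 members were called. The 4 h arrays stayed in that fit and so still entered its error.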
